A study of Mus musculus with 6 samples.

Results

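The steroid hormone receptors followed here were 8 genes, chosen by symbol from the 16300 genes of the expression table. They were the nuclear receptors for estrogen (*Esr1* and *Esr2*), progesterone (*Pgr*), glucocorticoid (*Nr3c1*) and mineralocorticoid (*Nr3c2*), the membrane-associated progesterone receptor components *Pgrmc1* and *Pgrmc2*, and the membrane estrogen receptor *Gper1*. All 8 were measured in cultured granulosa cells (GCs), the hormone-producing somatic cells of the ovarian follicle, and compared between 3 control libraries and 3 libraries from GCs given 25 nM dihydrotestosterone (DHT), an androgen that aromatase does not convert to estrogen, for 24 h. Both groups came from wild type C57BL/6J mice aged 8 to 9 weeks. By the study's methods, GCs of 5 mice were pooled for each experiment and kept for 48 h in culture and 4 h without serum before DHT, so each value describes a pool and a culture rather than 1 animal. The sample labels name the tissue as ovary and the cell type as granulosa cells, and the marker genes were therefore checked as described further on.

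Nuclear steroid receptors are ligand-activated transcription factors. Without hormone they are held by chaperone complexes, and with hormone they bind DNA elements and recruit coactivators or corepressors. In the ovary, estrogen acting mainly through ESR2 supports GC growth and differentiation, PGR is induced in GCs of the preovulatory follicle by the luteinizing hormone surge and is required for ovulation, and the glucocorticoid receptor is expressed broadly. PGRMC1 and PGRMC2 are heme-binding membrane proteins related to cytochrome b5 and differ in structure from the nuclear receptors, and GPER1 is a G protein-coupled receptor.

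With DHT, transcripts of 4 receptors fell and those of 1 rose. *Pgr* fell from 27.8 ± 3.33 to 9.83 ± 1.85 normalized counts (SD, n = 3), which was 2.82 times lower by the ratio of means. Fitted on the log2 scale, after 1 was added to each value, it fell by 1.42, to 0.375 of control. *Pgrmc1*, *Esr2* and *Nr3c1* fell by 0.38, 0.36 and 0.22 on the same scale, and *Pgrmc2* rose by 0.33. *Esr1*, *Nr3c2* and *Gper1* did not pass the test. A normalized count is the reads of a gene after division by the size factor of that library, and the threshold for a call was an adjusted p of 0.05 or less (limma on log2(value + 1), Benjamini-Hochberg adjustment over 16292 genes). By this rule 5 of the 8 receptors were called, against 11.2% of all genes tested. The median log2 change of the 8 receptors was -0.26, and that of all genes was -0.01.

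The promoter regions of the 4 receptors with the lowest adjusted p are shown so that the genes that fell can be set beside the gene that rose. Each runs from 250 bases before to 50 bases after the annotated start in the direction of transcription, and was taken from RefSeq on GRCm38.p6. The window of *Pgr* is chr9:8899583-8899882 on the plus strand, that of *Esr2* is chr12:76177210-76177509 on the minus strand, that of *Pgrmc1* is chrX:36597943-36598242 on the plus strand and that of *Pgrmc2* is chr3:41082997-41083296 on the minus strand. Capitals mark, on either strand, the arm AGAACA of the response element shared by several steroid receptors, the arm AGGTCA of the estrogen response element, the cyclic AMP arm TGACG, the GC box GGGCGG and the TATA box TATAAA.
Pgr: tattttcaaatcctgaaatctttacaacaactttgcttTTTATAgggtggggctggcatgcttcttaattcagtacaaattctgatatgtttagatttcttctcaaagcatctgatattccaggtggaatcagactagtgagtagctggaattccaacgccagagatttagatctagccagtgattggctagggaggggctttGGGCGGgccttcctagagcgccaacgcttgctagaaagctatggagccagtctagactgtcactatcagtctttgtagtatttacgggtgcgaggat
Esr2: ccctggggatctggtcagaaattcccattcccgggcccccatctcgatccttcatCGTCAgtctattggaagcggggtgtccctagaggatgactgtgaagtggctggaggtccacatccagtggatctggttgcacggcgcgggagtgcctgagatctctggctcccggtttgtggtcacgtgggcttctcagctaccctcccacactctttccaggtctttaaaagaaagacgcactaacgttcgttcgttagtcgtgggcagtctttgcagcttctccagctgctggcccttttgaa
Pgrmc1: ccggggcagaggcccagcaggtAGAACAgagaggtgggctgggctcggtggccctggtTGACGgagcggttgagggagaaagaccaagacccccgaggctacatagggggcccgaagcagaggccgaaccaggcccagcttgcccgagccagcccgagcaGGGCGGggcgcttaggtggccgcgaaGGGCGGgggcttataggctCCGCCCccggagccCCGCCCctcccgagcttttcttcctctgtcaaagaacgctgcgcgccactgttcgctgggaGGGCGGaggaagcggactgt
Pgrmc2: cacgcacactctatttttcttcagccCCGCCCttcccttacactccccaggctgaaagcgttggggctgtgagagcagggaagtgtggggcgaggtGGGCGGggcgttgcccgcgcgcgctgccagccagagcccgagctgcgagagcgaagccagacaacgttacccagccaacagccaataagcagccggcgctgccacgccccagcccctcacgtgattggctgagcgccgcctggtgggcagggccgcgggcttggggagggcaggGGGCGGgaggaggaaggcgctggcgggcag

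Positions of motifs are counted from the start base as 0. The *Pgr* window held TATAAA at position -212, on the opposite strand, and a GC box (GGGCGG) at position -47. The *Esr2* window held only TGACG, at position -195 and on the opposite strand. The *Pgrmc1* window held AGAACA at position -228, TGACG at position -192 and 5 GC boxes, and the *Pgrmc2* window held 3 GC boxes and no other of the marked motifs. Of 32851 promoters of this length, 19.0% held AGAACA, 20.8% held TGACG, 35.7% held GGGCGG and 13.6% held TATAAA on either strand. The table had 8 entries for 7 of the receptors, since *Esr1* has entries for more than 1 start, and no sequence of *Nr3c1* was used. None of the 8 entries held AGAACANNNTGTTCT, the response element shared by several steroid receptors, among them those for glucocorticoid and progesterone (0.00913% of all promoters), GGTCANNNTGACC, the estrogen response element (0.07%), AGGTCA, an arm of the latter (16.3%), CAAGGTCA, the site of NR5A receptors (1.56%), or TGACGTCA, the cyclic AMP response element (1.79%). AGAACA lies within the first of these, AGGTCA within CAAGGTCA, and TGACG within TGACGTCA. The absence of these letters from a window of 300 bases says nothing of sites elsewhere. The windows of *Pgrmc1* and *Pgrmc2* were similar in base composition, with 69.0% and 69.3% G and C and 24 and 25 CpG dinucleotides. Those of *Esr2* and *Pgr* had 56.0% and 43.7% G and C and 14 and 6 CpG, and the medians over all promoters were 52.7% and 7.

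**Figure D1:**
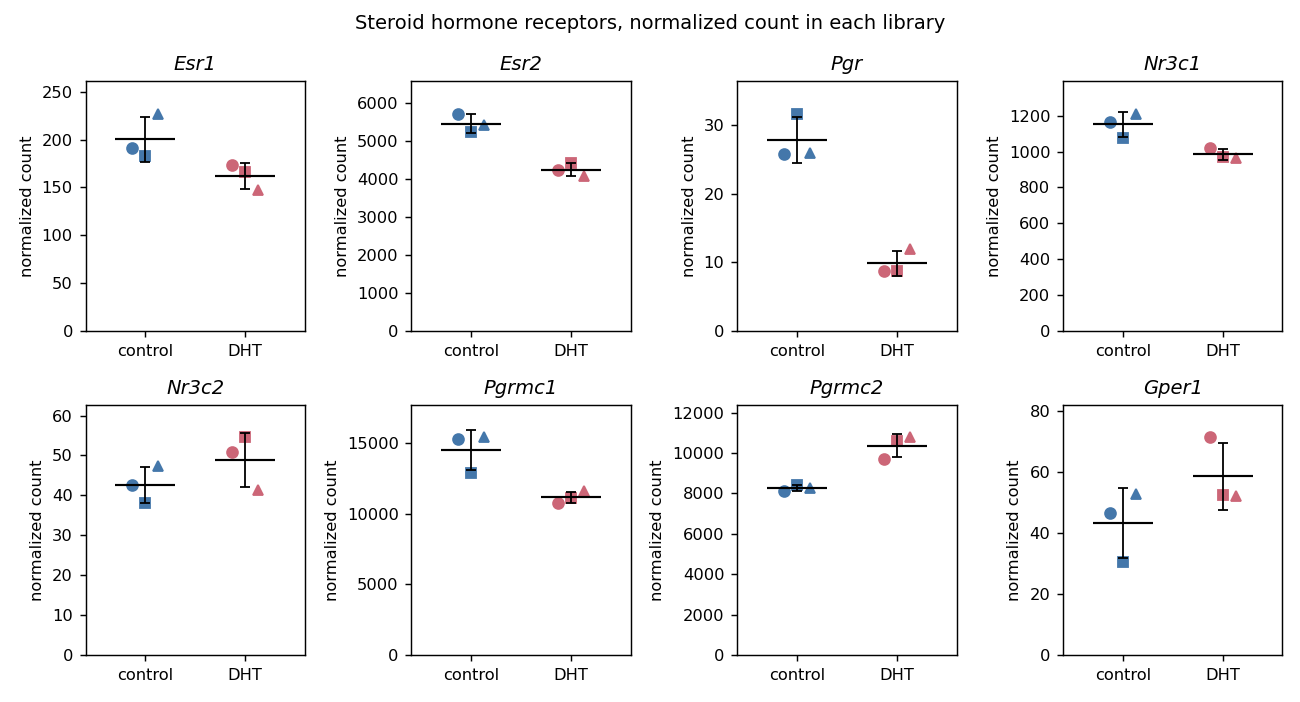
Normalized count of each of the 8 receptors in each library (circle, square and triangle for replicates 1 to 3; each panel has its own axis, starting at 0), for control and DHT-treated GCs, with the mean (line) and SD (bars, n = 3). The control and DHT points of *Esr2*, *Pgr*, *Pgrmc1*, *Pgrmc2*, *Nr3c1* and *Esr1* do not overlap, and those of *Nr3c2* and *Gper1* do.

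The libraries held between 36111177 and 41928585 reads over the genes of the table. In total 1823 genes passed the adjusted p, 1063 higher (6.52%) and 760 lower (4.66%) with DHT, and 213 (1.31%) also had an absolute log2 fold change above 1. Of the GC markers listed for this check, 9 of 10 were measured. *Foxl2*, the transcription factor that maintains GC identity, fell from 2505 to 2256 normalized counts (adjusted p = 0.049 by limma), and *Inha*, the inhibin alpha subunit, fell from 54181 to 35515 (adjusted p = 0.00162 by limma). *Cyp11a1*, the first enzyme of steroid synthesis, rose from 87825 to 123349 (adjusted p = 0.00997 by limma). The other 6 GC markers did not pass, *Fshr*, the receptor for follicle-stimulating hormone, averaging 150.1 and 145. *Cyp19a1* (aromatase) and the theca markers *Cyp17a1* and *Insl3* were not analysed here. Markers of other cells were present. Their summed levels ranged in control and in DHT from 2429 to 2799 and from 2193 to 2328 for 2 theca genes, from 3530.5 to 3831 and from 3000.2 to 3726 for 7 stroma genes, and from 4010.4 to 4577 and from 3124 to 4134 for 6 surface epithelium genes. The sums of 4 endothelial genes were 150.4 to 179 and 141 to 199, those of 3 immune genes 228 to 255 and 182 to 243, and those of 7 oocyte genes 347 to 807 and 117 to 606. Of these 29 genes only *Csf1r*, a macrophage receptor, was called (102 against 64.9, adjusted p = 0.027 by limma), and *Zp3* was at 0 in DHT replicate 2. That library was also lowest for *Zp1*, *Zp2* and *Bmp15* (2.18 normalized counts each) and for *Gdf9* (28.4), but not for *Dazl* and *Ddx4*. It had 45 genes at 0, against 0 to 5 in the others. The theca sum did not overlap between groups, but it was nearly all *Ptch1* (2543 in control and 2218 in DHT, adjusted p = 0.064 by limma), and *Gli1* lay the other way (18.6 and 25.7). The other sums overlapped. The part of these cells in the receptor values was not tested. In RNA from a culture, fewer cells of a type and less RNA per cell cannot be told apart.

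Levels were compared between genes as normalized counts per kb of exons, the union of all annotated exons of a gene. In control GCs the order ran from *Pgrmc1* with 7826 ± 770 (SD, n = 3) down to *Pgr* with 3.25 ± 0.39 normalized counts per kb. *Pgrmc1* lay above 99.0% of the 16265 genes with an annotated length, and *Pgr* above 2.89% of them. *Pgrmc2* came second with 2546 ± 41.8 and *Esr2* next with 1619 ± 73.6, above 96.2% and 93.3% of genes. *Nr3c1* stood near the middle of all genes, with 149.8 ± 8.76. *Gper1*, *Esr1* and *Nr3c2* were low, with 17.1 ± 4.50, 14.7 ± 1.71 and 6.58 ± 0.706 normalized counts per kb. In control GCs, *Gper1* and *Esr1* were the only neighbours in this order whose ranges overlapped, and in DHT-treated GCs the order was the same, with *Gper1* (23.1 ± 4.35) and *Esr1* (11.9 ± 0.992) apart. This order depended on the length used. With the longest transcript as length *Esr1* stood above *Gper1* in both groups, at 31.6 ± 3.69 in control and a mean of 25.6 in DHT, where the range of *Esr1* (23.2 to 27.3) overlapped with that of *Gper1* (20.6 to 28.2).

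**Figure D2:**
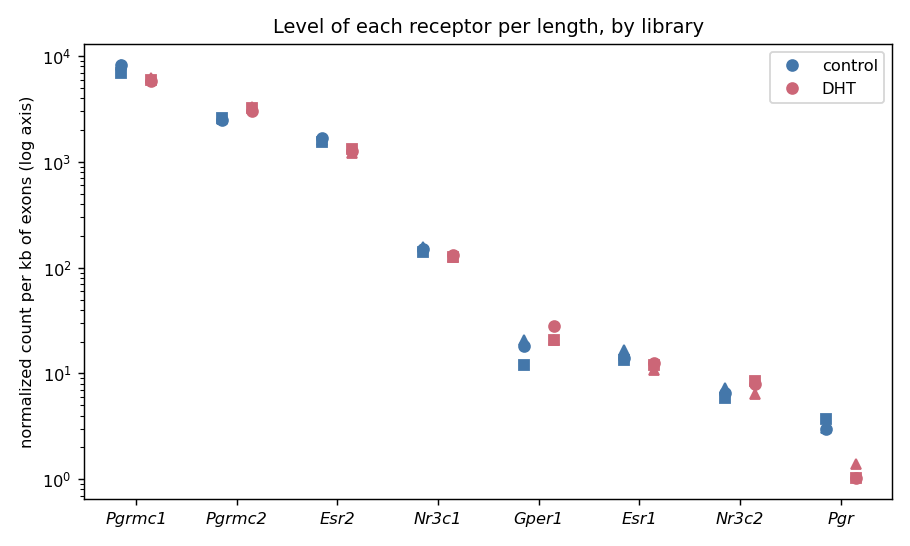
Normalized count per kb of exons (log axis) of the 8 receptors in each library (circle, square and triangle for replicates 1 to 3), with control and DHT side by side and genes ordered by their control mean. *Pgrmc1* was highest and *Pgr* lowest in all 6 libraries, and the control points of *Gper1* and *Esr1* overlap.

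*Esr2* (ENSMUSG00000021055, chr12:76120419-76177259, minus strand, GRCm38) encodes estrogen receptor beta, the main nuclear estrogen receptor of GCs. Its normalized counts were 5719, 5229 and 5409 in control replicates 1 to 3 and 4246, 4415 and 4071 in DHT replicates 1 to 3. Every DHT library lay below every control library, and the mean fell from 5452 ± 248 to 4244 ± 172, by 22.2%. DHT changed it by -0.36 on the log2 scale (standard error, SE, 0.046; 95% confidence interval -0.47 to -0.26, limma, Benjamini-Hochberg adjusted p = 0.00149). *Esr1* (ENSMUSG00000019768, chr10:4611593-5005614, plus strand) encodes estrogen receptor alpha, which in the ovary is best known from theca and interstitial cells. Its normalized counts were 191, 183 and 227 in control and 173, 166 and 147 in DHT. The groups did not overlap, but the difference did not pass the adjusted threshold, at a log2 fold change of -0.30 (SE 0.12; interval -0.58 to -0.03, limma, Benjamini-Hochberg adjusted p = 0.159). Groups without overlap were found for 6 of the 8 receptors, 5 of them lower and 1 higher, against 30.6% of all genes (14.7% lower and 15.9% higher).

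The ratio of *Esr2* to *Esr1* reads within a library does not depend on the size factor, and it follows the balance of both transcripts. It is not corrected for length, as *Esr1* has 13661 bases of exons and *Esr2* 3368, so its size is not a ratio of levels. It was 29.9, 28.6 and 23.8 in control and 24.5, 26.6 and 27.7 in DHT, so the groups overlapped. The log2 ratio, here and below taken after 1 was added to each normalized count, differed by -0.06 (SE 0.11, exact two-sided permutation test, p = 0.6, Benjamini-Hochberg adjusted over 4 ratios p = 0.6). *Gper1* (ENSMUSG00000053647, chr5:139423151-139427800, plus strand) had 46.5, 30.7 and 52.8 normalized counts in control and 71.4, 52.4 and 52.2 in DHT. DHT replicate 1 stood above all other libraries, and the other DHT values lay within the control range. The log2 fold change of 0.45 had an SE of 0.24 and an interval from -0.10 to 0.997, and did not pass the test (limma, Benjamini-Hochberg adjusted p = 0.291). The log2 fold change was 0.22 without control replicate 2 and 0.61 without control replicate 3. The interval reaches from slightly lower to 2.00-fold higher, so the direction was not resolved at this depth of 33 to 73 reads per library.

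*Pgr* (ENSMUSG00000031870, chr9:8899833-8968611, plus strand) encodes the nuclear progesterone receptor. It was measured at 25.7, 31.6 and 25.9 normalized counts in control and at 8.81, 8.73 and 11.97 in DHT. The highest DHT library was below the lowest control library. DHT changed it by -1.42 on the log2 scale (SE 0.27; interval -2.02 to -0.81; limma, Benjamini-Hochberg adjusted p = 0.00997). *Pgr* was the only receptor to pass both the adjusted p and an absolute log2 fold change above 1, as 0.399% of all genes did in the lower and 0.908% in the higher direction, and 105 genes had a larger absolute change. These values rest on few reads, 26, 34 and 28 in control and 9, 8 and 11 in DHT. Their sums of 88 and 28 have exact Poisson 95% intervals of 70.6 to 108 and 18.6 to 40.5, which cover counting error only. The change was also called when the recovered reads were tested with edgeR and with DESeq2, and without each library in turn. At a minimum mean of 50 it was not tested.

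*Pgrmc1* (ENSMUSG00000006373, chrX:36598206-36606079, plus strand) and *Pgrmc2* (ENSMUSG00000049940, chr3:41066326-41083046, minus strand) moved in opposite directions. *Pgrmc1* had 15291, 12884 and 15424 normalized counts in control and 10801, 11095 and 11588 in DHT, a fall of 23.2%. Control replicate 2 was the lowest of the controls and still above every DHT library. DHT changed it by -0.38 on the log2 scale (SE 0.068; interval -0.53 to -0.22, limma, Benjamini-Hochberg adjusted p = 0.00808). The call was lost without an intensity trend in limma (adjusted p = 0.0736). *Pgrmc2* had 8120.3, 8391 and 8250.5 normalized counts in control and 9717, 10588 and 10771 in DHT, 25.5% more. The controls of *Pgrmc2* spread by 1.64% of their mean, the least of any of the 8 receptors, and all DHT libraries were above them. DHT changed it by 0.33 on the log2 scale (SE 0.045; interval 0.23 to 0.43, limma, Benjamini-Hochberg adjusted p = 0.00206).

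The ratio of *Pgrmc1* to *Pgrmc2* reads was 1.88, 1.54 and 1.87 in control and 1.11, 1.05 and 1.08 in DHT. No library of a group overlapped with the other group, and the log2 ratio was lower by 0.70 (SE 0.10). An exact permutation of 3 against 3 libraries has 0.1 as its smallest p, and this value was reached (two-sided p = 0.1, Benjamini-Hochberg adjusted p = 0.133). Per kb of exons, *Pgrmc1* made up 61.6% to 65.6% of the summed level of the 8 receptors in control and 55.7% to 57.1% in DHT, and *Pgrmc2* 19.8% to 23.0% and 29.2% to 30.5%. The sum of both, a value chosen after the levels were seen, was 10372 ± 734 normalized counts per kb in control and 9206 ± 376 in DHT, and these groups overlapped (exact two-sided permutation test, p = 0.2).

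*Nr3c1* (ENSMUSG00000024431) encodes the glucocorticoid receptor. Its normalized counts were 1164, 1078 and 1211 in control and 1019, 971 and 963 in DHT. The DHT libraries lay below the controls, and the mean fell from 1151 ± 67.3 to 984 ± 30.1. DHT changed it by -0.22 on the log2 scale (SE 0.057; interval -0.35 to -0.10, limma, Benjamini-Hochberg adjusted p = 0.0371). The direction was the same without each library, but the call was lost without control replicate 1 or 3 or without any of the DHT replicates, at adjusted p between 0.0568 and 0.132, and was kept without control replicate 2 (0.0261). It was also lost without an intensity trend (0.1). *Nr3c2* (ENSMUSG00000031618, chr8:76899442-77245012, plus strand) encodes the mineralocorticoid receptor, which binds glucocorticoids as well as aldosterone. It had 42.5, 38.1 and 47.2 normalized counts in control and 50.9, 54.5 and 41.4 in DHT. The groups overlapped, and the log2 fold change of 0.19 (SE 0.19) and an interval from -0.24 to 0.62 did not pass the test (limma, Benjamini-Hochberg adjusted p = 0.592). It ranged from 0.11 (without DHT replicate 2) to 0.30 (without DHT replicate 3), and was also 0.11 without control replicate 2. Its exons overlap those of *Gm10649* on the other strand over 247 bases, and whether the authors' counting used strand is not given in the sources used here.

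The ratio of *Nr3c1* to *Nr3c2* reads was 27.3, 28.3 and 25.6 in control and 20.02, 17.8 and 23.3 in DHT, without overlap, and its log2 value was lower by 0.41 (SE 0.12; exact two-sided permutation test, p = 0.1, Benjamini-Hochberg adjusted p = 0.133). The nuclear progesterone and glucocorticoid receptors bind the same DNA element, and their transcripts were therefore also set against each other. The ratio of *Nr3c1* to *Pgr* reads was 45.2, 34.1 and 46.7 in control and 116, 111 and 80.5 in DHT. Its log2 value, taken after 1 was added to each normalized count, was higher by 1.19 (SE 0.21, exact two-sided permutation test, p = 0.1, Benjamini-Hochberg adjusted p = 0.133). With a pseudocount of 8 this difference was 0.78. Thus 3 of the 4 ratios reached the smallest p the design allows and none passed after adjustment.

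**Figure D3:**
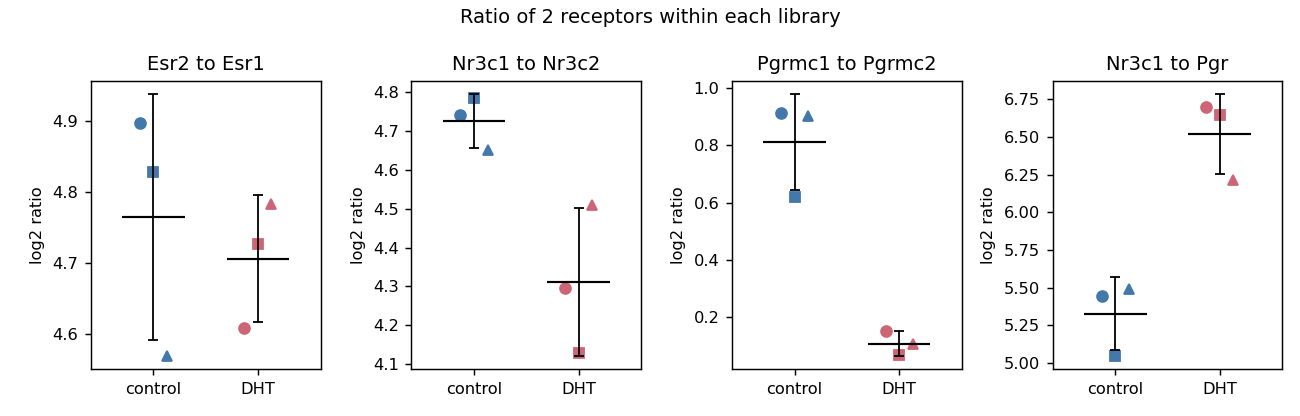
Log2 ratio of 2 receptors in each library, from normalized counts after 1 was added to each, with the mean (line) and SD (bars, n = 3). Circle, square and triangle mark replicates 1 to 3, and each panel has its own axis, which does not start at 0. *Nr3c1* to *Nr3c2* and *Pgrmc1* to *Pgrmc2* are lower and *Nr3c1* to *Pgr* is higher in every DHT library, and *Esr2* to *Esr1* overlaps between the groups.

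**Figure D4:**
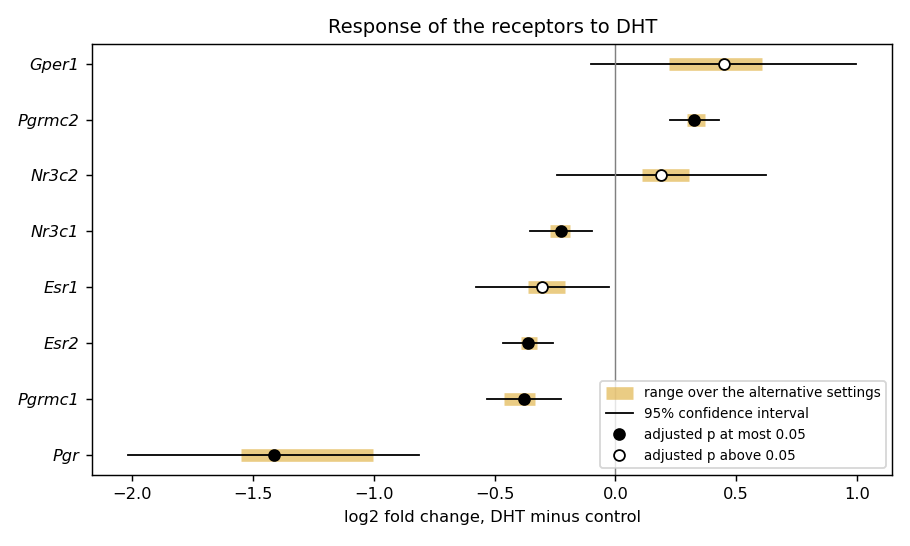
Log2 fold change of each receptor, DHT minus control (points, filled where the adjusted p was at most 0.05), with its 95% confidence interval from limma (lines, n = 3 libraries per group) and its range over the alternative settings (bands). The intervals of *Nr3c2* and *Gper1* include 0, and *Pgr* lies furthest from it at -1.42.

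The other genes of the pathways around these receptors were taken from 9 lists of 93 genes that are not themselves among the receptors, of which 85 were measured, 10 rose and 5 fell, where 6.52% of all genes rose and 4.66% fell. Of these 15 calls, 8 held without each library in turn, and without an intensity trend only those of *Sgk1*, *Hif1a*, *Tbl1x* and *Tbl1xr1* did. Among the closest relatives, the estrogen-related receptors, neither of 2 measured genes was called. *Esrra* averaged 911 ± 15.8 normalized counts in control and 863 ± 20.1 in DHT (log2 fold change -0.08, limma, Benjamini-Hochberg adjusted p = 0.369). None of 8 genes for membrane progestin receptors and relatives of PGRMC1 was called either. *Paqr9*, a further member of the progestin receptor family, had the largest difference, averaging 79.1 ± 22.3 in control and 50.01 ± 3.95 in DHT with no overlap (log2 fold change -0.62, adjusted p = 0.114 by limma), and passed without control replicate 1 (-0.83, adjusted p = 0.0377 by limma). *Paqr7*, a membrane progestin receptor, averaged 2084 ± 88.3 in control and 2200.1 ± 159 in DHT, and *Serbp1*, which encodes an RNA-binding partner of PGRMC1, averaged 20194 ± 395 and 19061 ± 136 (adjusted p = 0.176 by limma).

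Of 15 chaperones and immunophilins, which hold steroid receptors ready for hormone, 2 rose and 13 did not pass, a share near the 11.2% of all genes called in either direction. *Fkbp5*, an HSP90 co-chaperone that lowers glucocorticoid receptor affinity, rose from 17705 ± 958 to 20833 ± 1246 normalized counts (log2 fold change 0.23, limma, Benjamini-Hochberg adjusted p = 0.0283). The call was lost without control replicate 2, DHT replicate 2 or DHT replicate 3 (adjusted p 0.0851 to 0.115). *Bag1*, an HSP70 co-chaperone, rose by 0.21 on the log2 scale (adjusted p = 0.0142 by limma). *Hspa8* and *Hsp90ab1*, the most abundant of this list, did not pass (log2 fold changes -0.07 and -0.04, adjusted p = 0.406 and 0.628 by limma). With quantile normalization both were called lower, at -0.21 and -0.22 (adjusted p = 0.0191 and 0.0222 by limma).

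Of 13 coactivators 1 was called higher, near the 6.52% of all genes. This was *Ncoa7*, which rose from 2419 ± 206 to 2989 ± 34.8 normalized counts (log2 fold change 0.31, limma, Benjamini-Hochberg adjusted p = 0.01). Of 11 corepressors measured, 3 fell, none rose and 8 did not pass, where 4.66% of all genes fell and 6.52% rose. *Tbl1x* and *Tbl1xr1*, which encode related subunits of the NCoR corepressor complex, fell by 0.22 and 0.25 (adjusted p = 0.0043 and 0.0127 by limma), and *Nrip1*, a corepressor required for ovulation, fell by 0.21 (adjusted p = 0.037 by limma). *Ncor1*, the scaffold of that complex and the most abundant of the list, was not called, with a log2 fold change of 0.02 that turned negative (-0.015) without control replicate 2. The call of *Tbl1xr1* was lost without DHT replicate 3 (0.0589), and that of *Nrip1* without control replicate 1 or 2 or any DHT replicate (0.0541 to 0.118).

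Of 2 genes measured from the list of glucocorticoid prereceptor enzymes, 1 rose, where 6.52% of all genes rose. *H6pd* did not pass (log2 fold change -0.07, adjusted p = 0.303 by limma). *Hsd11b2* encodes the enzyme that inactivates glucocorticoids before they reach the receptor. It had 697, 691 and 382 normalized counts in control and 948, 1081 and 1306 in DHT. Control replicate 3 was far below the other controls, and all DHT libraries were above all controls (log2 fold change 0.95, SE 0.22, limma, Benjamini-Hochberg adjusted p = 0.0234). The call was lost without DHT replicate 2 or 3 (adjusted p 0.0709 and 0.103).

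Of 14 glucocorticoid receptor targets measured, 4 rose, none fell and 10 did not pass, with a median log2 fold change of 0.24 (all genes 6.52% higher, 4.66% lower and a median of -0.01). *Sgk1*, a kinase of ion transport and cell survival, rose from 14950.4, 15784 and 16798 normalized counts in control to 26137, 25785 and 29069.8 in DHT (log2 fold change 0.77, SE 0.059, limma, Benjamini-Hochberg adjusted p = 0.000118), and kept its call in every alternative. *Errfi1*, a feedback inhibitor of the EGF receptor, rose by 0.48 (adjusted p = 0.0199 by limma), *Fkbp5* by the 0.23 given above, and *Nfkbia*, the inhibitor of NF-kappa-B, by 0.23 (adjusted p = 0.0486 by limma). *Errfi1* lost its call without control replicate 2 or any DHT replicate (0.0547 to 0.0663), and *Nfkbia* without control replicate 1 or 2 or any DHT replicate (0.101 to 0.163) and with quantile normalization (0.0539). *Per1*, a clock gene, had 1235, 1319 and 2281 normalized counts in control and 2441, 2224 and 2008 in DHT, and *Pdk4*, a brake on pyruvate oxidation, averaged 1239 ± 261 and 924 ± 93.1. Both overlapped between groups and did not pass (log2 fold changes 0.52 and -0.41, adjusted p = 0.14 and 0.0986 by limma). *Per1* passed without control replicate 3 (log2 fold change 0.80, adjusted p = 0.000337 by limma), and *Pdk4* passed without control replicate 2 (-0.56, adjusted p = 0.0197 by limma) and by DESeq2 (adjusted p = 0.00731). Without control replicate 1, *Per1* was at 0.35 and *Pdk4* at -0.25. Several of these genes also respond to other steroid receptors, and which receptor acted on them was not tested.

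Of 13 estrogen receptor targets, 2 rose and 3 fell, *Pgr* among the latter, and the median log2 fold change was -0.08 (all genes 6.52% higher and 4.66% lower). *Cxcl12*, a chemokine, had 5317, 3293 and 5491 normalized counts in control and 2313, 1787 and 1551 in DHT. All DHT libraries were lower, though control replicate 2 stood apart from the other controls (log2 fold change -1.30, SE 0.20, limma, Benjamini-Hochberg adjusted p = 0.00346). *Ccnd1*, cyclin D1, fell by 0.71 (adjusted p = 0.0393 by limma), a call that was lost without control replicate 1 or 3 or any DHT replicate (0.0532 to 0.112). *Xbp1*, a transcription factor of the unfolded protein response, and *Wisp2*, a secreted matricellular protein, rose by 0.28 and 0.59 (adjusted p = 0.0067 and 0.00983 by limma). *Greb1*, a coregulator of the estrogen receptor, was abundant and did not pass, at 30950 ± 5137 and 31341 ± 1565 normalized counts (adjusted p = 0.892 by limma).

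Of 9 progesterone receptor targets of the ovulating follicle that were measured, 1 rose and 8 did not pass, a share near the 11.2% of all genes called, with a median log2 fold change of 0.03. *Hif1a*, the oxygen-sensing transcription factor, rose from 24134 ± 914 to 29695 ± 495 normalized counts (log2 fold change 0.30, limma, Benjamini-Hochberg adjusted p = 0.0021). *Adamts1*, a protease of the expanding cumulus matrix, averaged 4296 ± 823 and 4991 ± 384 and did not pass (log2 fold change 0.23, adjusted p = 0.259 by limma), but passed without control replicate 3 (0.38, adjusted p = 0.00842 by limma) and was 0.12 without control replicate 1. Exons of *Hif1a*, and those of *Ccnd1*, *Csf1r*, *Serbp1* and *Greb1* above, overlap exons of other genes on the opposite strand. Exons of *Hif1a*, *Ncoa7* and *Cyp11a1* overlap some on the same strand, and other genes named here have such overlaps too. The counts of these genes may include reads of the genes they overlap.

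**Figure D5:**
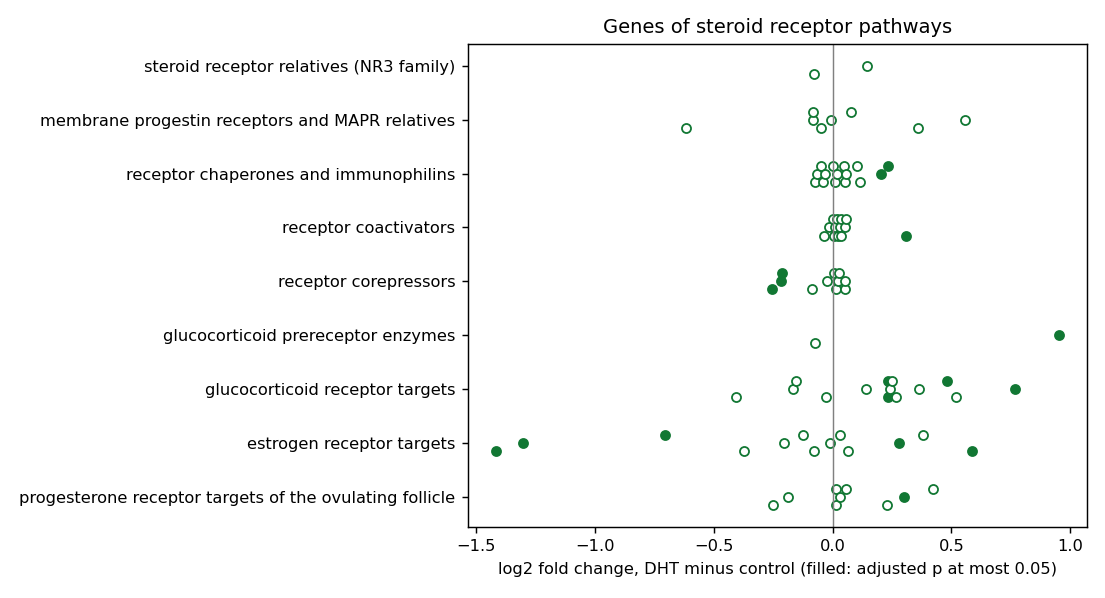
Log2 fold change, DHT minus control, of each measured gene of the 9 pathway lists (points, filled where the adjusted p was at most 0.05). The glucocorticoid receptor targets have the highest median among lists of more than 2 genes, 0.24, with 4 genes called higher and none lower.

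Genes whose profile over the 6 libraries was most like that of a receptor were found by the root mean squared difference of log2 values, each centred on the gene's own mean, among genes with a mean of at least 100. For *Esr2* these were *Kazald1*, *Siae* and *Plxnc1*, with differences of 0.0072, 0.027 and 0.03, where the median over all genes was 0.2. For *Pgrmc1* they were *Ldhd*, *Gsr* and *Abcc4* (0.014, 0.019 and 0.021), for *Pgrmc2* they were *Slc35f6*, *Pdlim5* and *Elovl5* (0.019, 0.033 and 0.033), and for *Nr3c1* they were *Wsb1*, *St3gal5* and *Tmem35a* (0.014, 0.014 and 0.016). *Pgr* had no such close match. Its 8 to 34 reads per library carry more counting error, and genes at its own level were not compared. Differences as small as those above could therefore not be expected for *Pgr*. Its nearest genes were *Slitrk4*, *Sulf1* and *Gm11843*, with differences of 0.2, 0.21 and 0.22, where the median over all genes was 0.73. The 3 genes nearest to *Esr2* were different from those nearest to *Pgrmc1*. With 11632 genes compared and 3 kept for each receptor, such lists would rarely share a gene, so no conclusion is drawn. The measure covers 6 libraries in 2 groups, so genes with a similar difference between the groups score as alike.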

How the data were processed

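RNA-seq was analysed in 6 libraries, 3 control and 3 DHT, grouped by the treatment in the labels. Per the labels and the study's methods, the authors used Trimmomatic 0.36 for trimming, aligned to GRCm38 by STAR 2.5.2b and counted exonic reads with featureCounts of Subread 1.5.2. The deposited signal of a gene is its count divided by a DESeq2 size factor. The log2 fold changes and the p-values deposited by the authors hold their own comparison and were not used. Annotation release and strand setting are not given in the sources used here.

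Reads were recovered by dividing each library's values by their step, and 100% of values came out whole within 0.01. Depth was 36111177 to 41928585 reads. Log2(value + 1) was tested for the 16292 genes whose mean reached 10, by limma 3.58.1 (R 4.3.3, intensity trend), and p-values were adjusted by Benjamini-Hochberg. limma was tested on simulated data. Log2 ratios of normalized counts, with 1 added to each count, were compared by exact two-sided permutation. Positions, overlaps and lengths were read from GENCODE on GRCm38, with 16265 of 16300 IDs matched. Promoters and motifs came from RefSeq.

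The receptors, lists and tests were chosen with earlier results of these data known. Beside the receptors, all listed genes past the threshold, and in each list the 4 with the largest change and the 2 with the highest mean, could be named. For called receptors the 3 most similar genes were named. Alternatives were pseudocounts of 0.5 and 8, no filter, a minimum mean of 50, TMM or quantile scaling, the replicate block, no intensity trend, edgeR 4.0.16 and DESeq2 1.42.0 on recovered reads, and each library left out. By the study's methods each library was a pool of GCs from 5 animals, with 3 pools for each treatment. Nothing in the labels ties a library to its own animals, so p-values measure the spread between these libraries. Some listed genes are not reported here, and other assays of the study were not analysed here.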

Additional observations from a re-analysis of the deposited data

How the results depend on the processing

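The calls of *Pgr*, *Esr2* and *Pgrmc2* held in every alternative that tested them. Without an intensity trend 2 receptors were called lower, as *Pgrmc1* and *Nr3c1* (adjusted p = 0.1) lost their calls, and over all genes 501 were higher and 303 lower, 40 of the latter with a log2 fold change beyond 1. With the replicate block 633 genes were higher and 357 lower, and *Nr3c1* lost its call (0.0977). The numbers were not taken as pairs, since same-numbered libraries correlated at 0.0058, 0.067 and -0.24 in their deviations from the group means and 1 of 6 libraries correlated best with its own number. The block changed no other receptor's call, and 8 of the 15 called pathway genes lost theirs (*Fkbp5*, *Bag1*, *Nrip1*, *Tbl1xr1*, *Hsd11b2*, *Nfkbia*, *Errfi1* and *Ccnd1*). At a mean of at least 50, where *Pgr* was not tested, 0 receptors, 89 higher and 42 lower genes passed both thresholds by limma. Leaving out 1 library gave 3 to 4 receptors lower and 1 higher, with 1 lower and 0 higher past both thresholds. Over all genes it gave 581 to 1237 higher and 350 to 857 lower, and 95 to 195 and 41 to 91 past both thresholds. With 1 library left out, the differences in log2 ratio ranged from -0.16 to 0.00698 for *Esr2* to *Esr1* and from -0.51 to -0.32 for *Nr3c1* to *Nr3c2*. They ranged from -0.80 to -0.65 for *Pgrmc1* to *Pgrmc2* and from 1.05 to 1.34 for *Nr3c1* to *Pgr*. With a pseudocount of 8 that of *Nr3c1* to *Pgr* was 0.78. The difference for *Esr2* to *Esr1* turned direction (0.00698) without control replicate 1. With the longest transcript as length, control levels moved for *Pgrmc2* (2745), *Nr3c1* (179), *Esr1* (31.6) and *Pgr* (4.03). Uncalled genes that turned direction without 1 library ranged from -0.015 to 0.049 (*Ncor1*), -0.10 to 0.14 (*Greb1*), -0.024 to 0.011 (*Ctsd*), -0.58 to 0.32 (*Cxcr4*) and -0.092 to 0.13 (*Ctsl*). The cause of these changes was not tested.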

Other observations

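In both groups the low receptors were also the least precise. The SD of *Gper1* was 26.3% of its control mean and that of *Pgr* 18.8% of its DHT mean, against 4.54% for *Esr2* in control. For *Gper1*, *Nr3c2*, *Esr1* and *Pgr* the standard errors of the log2 fold change were between 0.12 and 0.27, and the median over all genes was 0.0782, so changes of the size seen for *Pgrmc2* would be within the interval of *Gper1* and of *Nr3c2*.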
